A study of Mus musculus with 9 samples.

Results

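The genes described here are 7 genes of heat production and uncoupling: Ucp1, Ucp2, Ucp3, Cox8b, Cox7a1, Elovl3 and Ppargc1a. Their probe sets, the groups of short probes that each read 1 transcript, were found on the array by gene symbol or older synonym in the platform annotation. The search gave 8 probe sets for 6 of the 7 genes among 12422 probe sets without controls. Ucp2 was named on 0 probe sets and was not analysed here. Of the 8 probe sets, 6 probe sets of 4 genes (Ucp1, Ucp3, Cox8b and Cox7a1) were bright enough to be tested, among 9783 tested in all. Elovl3 and Ppargc1a were not tested, and their values are given as a description.

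Brown adipocytes burn fatty acids to make heat. UCP1, a carrier protein of their inner mitochondrial membrane, lets protons return to the matrix without ATP synthesis, and adrenergic signals raise its gene's transcription through cyclic AMP and the coactivator PGC-1alpha, the product of Ppargc1a. UCP2 and UCP3 are related carriers whose roles are less settled: Ucp3 is expressed mainly in skeletal muscle and brown fat, and its transcription responds to fatty acids. Cox8b and Cox7a1 encode subunits of cytochrome c oxidase, the last complex of the respiratory chain, in the forms used by muscle and brown fat, and Elovl3 encodes a very long chain fatty acid elongase induced in brown fat by cold. The mouse mammary gland lies in a fat pad, mostly of white adipocytes, which the epithelium fills during pregnancy and lactation.

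RNA of the entire inguinal gland, no. 4, was hybridized to MG-U74Av2 arrays, and came from wild type C57BL/6J females, an inbred strain. Puberty, labelled virgin, was sampled at 6 weeks of age (3 arrays), pregnancy at day 14 (2 arrays), lactation at day 10 (2 arrays) and involution at day 4 after the pups were weaned (2 arrays). By the methods each array held the gland of a separate female, and all 9 females were of the same genotype with no further treatment. With 2 or 3 females per stage, the spread rests on few animals, and in whole glands fewer cells of a type and less RNA per cell cannot be told apart.

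Values are linear MAS5 signals, the authors' summary of a probe set's brightness, scaled here to the same median on every array. Signals at or under 20 were treated as background, the floor, and set to 20 before log2 was taken for the tests. Printed signals are without the floor. A log2 change is the difference of mean log2 signals between 2 stages, with its standard error (SE). Adjusted p-values come from limma with Benjamini-Hochberg adjustment over the 9783 probe sets, and a probe set was called at an adjusted p under 0.05. A fold against a stage with every array at the floor is a lower bound, computed on mean log2 signals against the floor of 20, and is written as at least that fold. Levels were not compared between probe sets.

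The 9 arrays had deposited medians of 48.1 to 53.8, and 13.2% to 15.5% of tested probe sets were at the floor on each. Correlations of log2 signals over tested probe sets, a description of likeness, were 0.947 to 0.975 between arrays of 1 stage, 0.969 to 0.975 among the puberty arrays and 0.724 to 0.935 between stages. The stage labels were checked against marker lists. In lactation against puberty, 26.1% of all tested probe sets were called higher and 21.8% lower. Of 15 tested luminal epithelium genes 11 were called higher and 3 lower. Of 15 tested white adipocyte genes 0 were called higher and 11 lower. Skeletal muscle genes were bright at puberty. The summed signal of 27 muscle genes was 16957 to 44247 at puberty, 926 to 2486 in pregnancy, 1254 to 1419 in lactation and 1193 to 1627 in involution.

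Upstream windows of 300 bases, 250 before and 50 after the start site, are shown for the 4 tested genes, because their stage patterns differed and these are the stretches nearest to their starts. The sequences are RefSeq's, of the assembly GRCm38.p6, 5′ to 3′ on the gene's strand: Ucp1 at chr8:83290098-83290397 (+), Ucp3 at chr7:100472741-100473040 (+), Cox8b at chr7:140900397-140900696 (-) and Cox7a1 at chr7:30183921-30184220 (+). Capitals mark the motifs searched on both strands: TATAAA, the core promoter box; CAGCTG, an E-box of the kind that muscle regulators bind; AGGTCA, the core of nuclear receptor elements; and TGACG or its reverse complement CGTCA, the core of cyclic AMP response elements.
Ucp1: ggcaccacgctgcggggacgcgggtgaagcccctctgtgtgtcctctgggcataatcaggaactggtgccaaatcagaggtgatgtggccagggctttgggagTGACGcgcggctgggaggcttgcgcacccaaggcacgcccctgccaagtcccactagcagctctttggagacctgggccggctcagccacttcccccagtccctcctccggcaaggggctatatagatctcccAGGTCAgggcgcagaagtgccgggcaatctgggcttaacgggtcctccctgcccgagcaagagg
Ucp3: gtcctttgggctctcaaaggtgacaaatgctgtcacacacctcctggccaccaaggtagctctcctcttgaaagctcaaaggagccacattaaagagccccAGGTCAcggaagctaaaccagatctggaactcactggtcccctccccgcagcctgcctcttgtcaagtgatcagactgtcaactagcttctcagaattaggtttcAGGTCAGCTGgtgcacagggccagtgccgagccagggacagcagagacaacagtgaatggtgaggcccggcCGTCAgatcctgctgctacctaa
Cox8b: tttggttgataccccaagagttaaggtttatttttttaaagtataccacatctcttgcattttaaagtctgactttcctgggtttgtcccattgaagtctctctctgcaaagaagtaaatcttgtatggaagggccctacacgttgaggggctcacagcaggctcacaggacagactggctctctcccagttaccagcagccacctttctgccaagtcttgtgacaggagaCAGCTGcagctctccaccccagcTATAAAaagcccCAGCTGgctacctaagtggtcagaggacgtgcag
Cox7a1: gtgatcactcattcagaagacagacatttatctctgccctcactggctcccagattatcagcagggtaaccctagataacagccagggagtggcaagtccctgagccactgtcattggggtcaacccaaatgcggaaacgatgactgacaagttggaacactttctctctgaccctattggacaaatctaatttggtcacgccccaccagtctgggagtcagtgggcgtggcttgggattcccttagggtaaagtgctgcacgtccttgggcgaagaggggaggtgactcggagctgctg
A match of letters is a description and shows no site in use. The Ucp1 window held AGGTCA 14 bases and TGACG 147 bases before the start site. The Ucp3 window held AGGTCA 149 and 44 bases before the start, the nearer one overlapping a CAGCTG that began 40 bases before it, and CGTCA 27 bases after the start. The Cox8b window held CAGCTG 19 bases before and 16 bases after the start, and TATAAA 4 bases after it. The Cox7a1 window held 0 of the 4 motifs. Such matches are common: over 32851 windows of this length, TATAAA was in 13.6%, AGGTCA in 16.3%, CAGCTG in 16.3% and TGACG in 20.8%. Of the 7 genes 6 had a window, all but Elovl3, and the annotation places Ucp3 and Ucp2 next to each other on chromosome 7.

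Over the 4 stages, the genes followed different courses. Cox8b and Cox7a1 were high at puberty and lower in the 3 later stages, Ucp3 was high in lactation, and Ucp1 was high on 1 puberty array and at or near the floor from lactation on. By limma's moderated F test over the stages, 4 of the 6 tested probe sets passed, against 51.6% of all probe sets tested, so that the count is not far from the background. The probe sets that passed were those of Ucp3, Cox7a1 and Cox8b (2), and both Ucp1 probe sets missed the threshold.

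**Figure D1:**
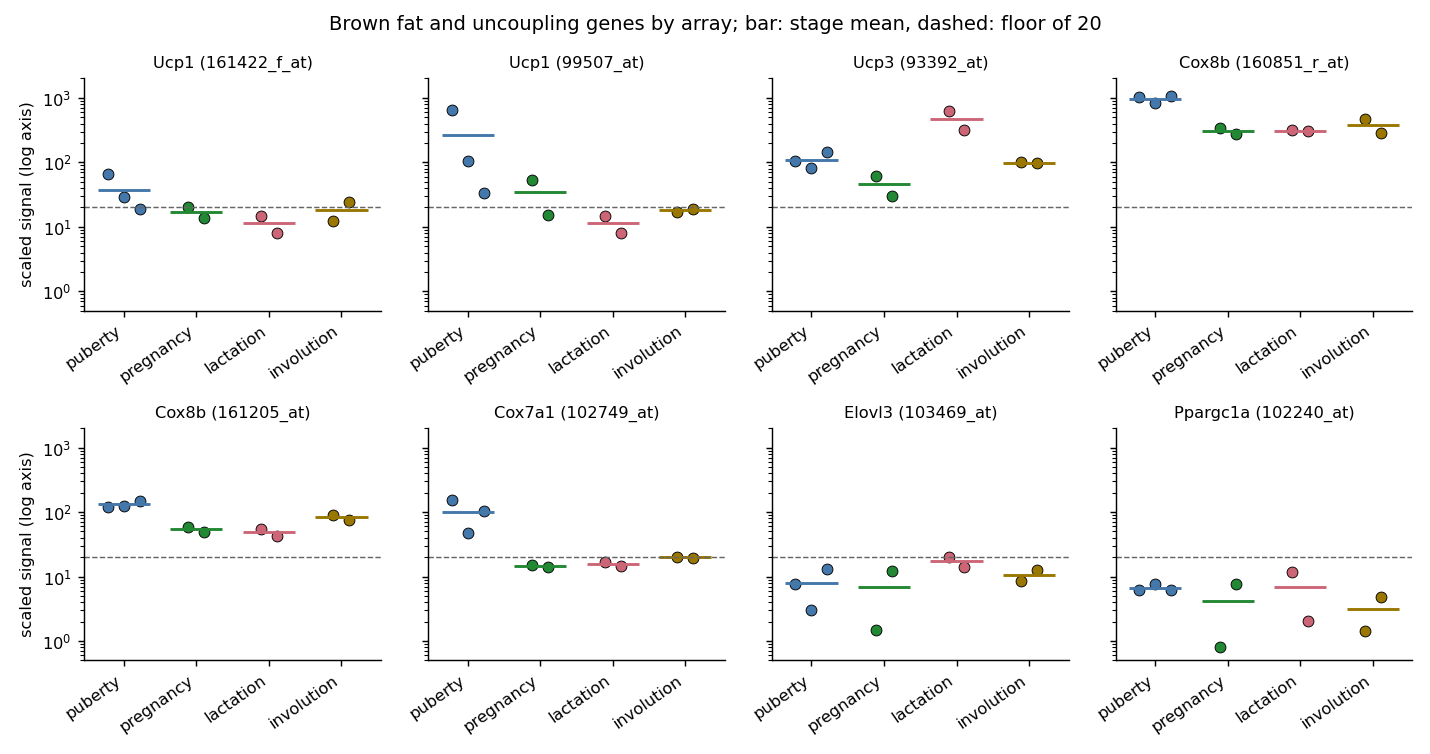
Scaled signal (log axis) of each of the 8 probe sets on the 9 arrays, by stage; each point is an array, a bar gives the mean of a stage, and a dashed line marks the floor (20). Ucp3 was highest on the lactation arrays (321 and 620), Cox8b and Cox7a1 on the puberty arrays, and Elovl3 and Ppargc1a lay near or under the floor throughout.

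Against puberty, pregnancy had 0 of the 6 probe sets called higher (background 6.20%) and 3 called lower (5.22%), those of Cox7a1 and Cox8b. Cox7a1 had passed the filter through its puberty mean alone. Lactation against puberty had 1 called higher (26.1%), Ucp3, and 3 called lower (21.8%), again Cox7a1 and Cox8b. In involution 0 were called higher (4.39%) and 2 lower (3.10%) than at puberty, Cox7a1 and 1 probe set of Cox8b. Lactation against pregnancy had 1 called higher (21.6%), Ucp3, and 0 lower (19.7%). Involution against lactation had 1 called higher (22.1%), a Cox8b probe set, and 1 lower (23.0%), Ucp3. The median log2 change over all tested probe sets was 0.00 for pregnancy against puberty, 0.07 for lactation against pregnancy, 0.09 for lactation against puberty, -0.03 for involution against lactation and 0.05 for involution against puberty.

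**Figure D2:**
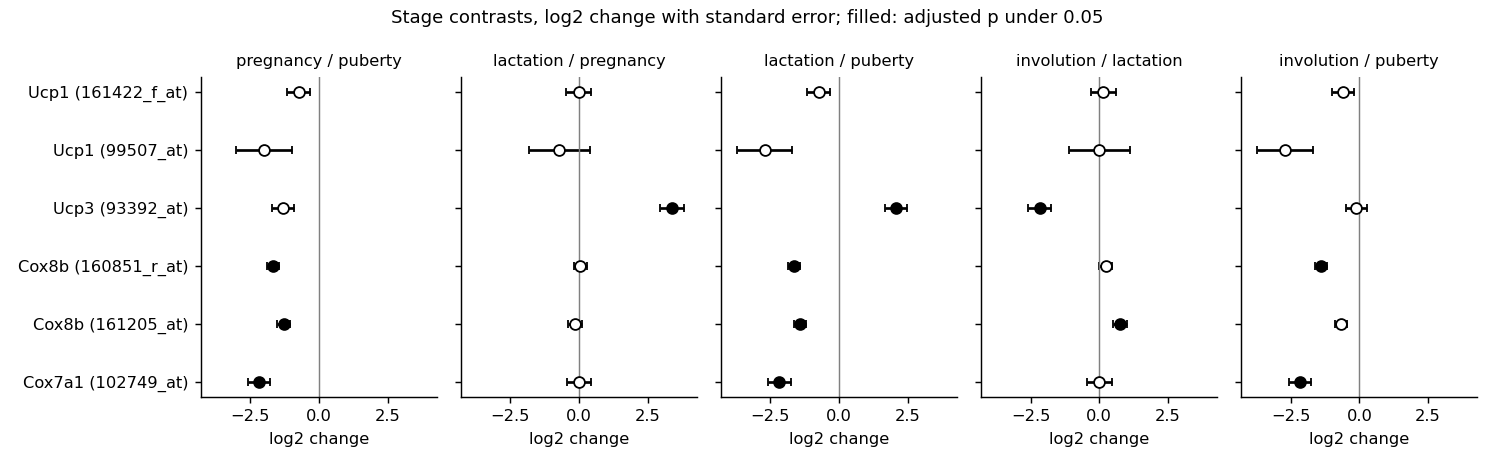
Log2 change with its SE (bars) of the 6 tested probe sets in 5 stage contrasts, the later stage over the earlier one or over puberty; filled points have an adjusted p under 0.05. Ucp3 stands at 3.38 in lactation over pregnancy and at -2.17 in involution over lactation, and the Cox8b and Cox7a1 changes against puberty are at or below -0.66; points at 0 for Ucp1 and Cox7a1 are contrasts with both stages at or near the floor.

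Ucp1 was read by 2 probe sets. With the probe set of suffix _at its signal was 643, 106 and 33.1 on the puberty arrays, 54.0 and 15.3 in pregnancy, 14.5 and 8.16 in lactation and 17.1 and 19.0 in involution. The highest puberty array stood 19.4-fold above the lowest. The 3 puberty arrays lay above all lactation and involution arrays, which were all at the floor, while pregnancy overlapped puberty. The stage means were 261 ± 333 (SD, n = 3) at puberty, 34.6 ± 27.4 (SD, n = 2) in pregnancy, 11.3 ± 4.51 (SD, n = 2) in lactation and 18.1 ± 1.37 (SD, n = 2) in involution.

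The stage test of Ucp1 (_at) missed the threshold, with an adjusted p of 0.105. Lactation was at least 6.56-fold lower than puberty (log2 change -2.71, SE 1.02, adjusted p = 0.0545), and involution, also at the floor, had the same bound (adjusted p = 0.157). The pregnancy change was -2.0 (SE 1.02, adjusted p = 0.272). With this spread, the misses do not show that the stages were alike. The spread came from puberty: without puberty replicate 3, the lowest, the lactation change was -3.71 (adjusted p = 0.0076), the involution change was -3.71 (adjusted p = 0.0447) and the stage test passed (adjusted p = 0.0166). Without puberty replicate 1, the highest, the lactation change was -1.57 (adjusted p = 0.0689) and without puberty replicate 2 it was -2.87 (adjusted p = 0.088).

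The other Ucp1 probe set, of suffix _f_at, belongs to a class of probe sets that share probes among similar sequences. Its signal was 66.0, 28.6 and 19.2 at puberty, 20.4 and 13.6 in pregnancy, 14.6 and 7.95 in lactation and 12.5 and 24.7 in involution. The puberty arrays had the same order as with the _at probe set, and 5 of 9 arrays were at the floor with each probe set. The _f_at probe set passed the filter through its puberty mean alone (37.9). Its stage test had an adjusted p of 0.324, and lactation against puberty a log2 change of -0.75 (SE 0.41, adjusted p = 0.168), or -1.12 without puberty replicate 3 (adjusted p = 0.0364).

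Puberty replicate 1 was examined further, since Ucp1 stood out on it. Over the 9783 tested probe sets, the ratio of puberty replicate 1 to the higher of the other puberty arrays, with signals under the floor set to it, was largest for the Ucp1 _at probe set, at 6.07. The _f_at Ucp1 probe set ranked 20 with 2.31. Cox7a1 ranked 201 with 1.48, while Cox8b ranked 4524 and 7243 and Ucp3 ranked 8399. This array was picked because Ucp1 was high on it, so the Ucp1 ranks are a description and no separate support. The probe sets of Cox8b and Ucp3 were further down this order.

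Of 11 other brown adipocyte list genes that were tested, 7 were highest on puberty replicate 1 (63.6%, against 29.8% of all tested probe sets) and 9 were lowest on puberty replicate 2, as were 2689 of the 9783 tested probe sets. Replicate 1 was also the highest for 9 of 15 macrophage genes (60%) and 8 of 15 luminal epithelium genes (53.3%). Dio2, Pdk4, Kcnk3 and Ebf2 are named here after their values were seen. Dio2, which encodes the deiodinase that activates thyroid hormone in brown fat, ranked 7 in that order, with 99.7, 22.9 and 29.4 on the puberty arrays, and was not called over the stages (adjusted p = 0.379). Pdk4, a kinase that restrains pyruvate oxidation, ranked 12, with 811, 214 and 317. Kcnk3, a potassium channel gene of brown fat, ranked 60, with 44.8, 22.8 and 24.7. Cidea, a lipid droplet gene of brown fat that is also expressed in lactating epithelium, ranked 14, with 550, 180 and 225 at puberty. Ebf2, a transcription factor gene of brown adipocyte precursors, went the other way, with 64.4, 112 and 118 at puberty, and was not called over the stages (adjusted p = 0.198). The order of the arrays was shared by Dio2, Pdk4, Kcnk3, Cidea and Ucp1 in that replicate 1 was the highest, but not in which of the others was lowest.

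**Figure D3:**
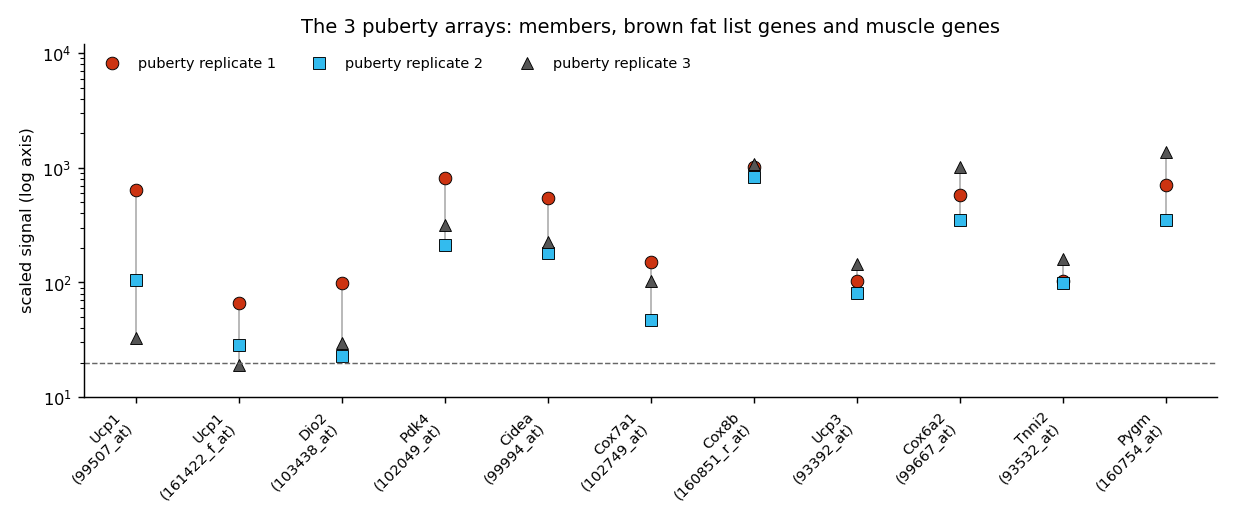
Scaled signal (log axis) on the 3 puberty arrays for 5 tested probe sets of Ucp1, Cox7a1, Cox8b and Ucp3, for 3 brown adipocyte list genes (Dio2, Pdk4, Cidea) and for 3 muscle list genes (Cox6a2, Tnni2, Pygm), with the floor (20) dashed. Ucp1 and the 3 brown adipocyte genes drawn are highest on replicate 1, and the muscle genes on replicate 3. Dio2 and Pdk4 were picked after their values were seen. Of the 11 tested genes of that list without the members, 7 were highest on replicate 1, and Ebf2, Fabp3, Ppara and Lhx8, not drawn, were not.

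Muscle genes followed another order. All 27 tested muscle genes were highest on puberty replicate 3, and 26 of them were lowest on puberty replicate 2. Replicate 3 was also the highest for 11 of 15 white adipocyte genes, of which 12 were lowest on replicate 1, and for 7 of 10 cytochrome c oxidase subunit genes other than Cox8b and Cox7a1. Pygm, the glycogen phosphorylase of muscle, had 710, 351 and 1368 on the puberty arrays. Ucp3 and Cox8b, by its probe set of suffix _r_at, were highest on replicate 3 and lowest on replicate 2 as well. The other Cox8b probe set was highest on replicate 3 and lowest on replicate 1, and Cox7a1 was highest on replicate 1 and lowest on replicate 2. The part of muscle, fat, epithelial or macrophage cells in these differences between puberty arrays was not tested.

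Of the brown adipocyte list, Zic1, Bmp8b, Slc27a2 and Ppargc1a were at the floor on all 9 arrays, while Ebf2 was above it on all 9 (52.6 to 118). Of its 32 genes 20 had a probe set and 14 were tested, among them Ucp1, Cox8b and Cox7a1. In lactation 2 of the 14 were called higher (26.1% of all tested) and 4 lower (21.8%) than at puberty. The 4 were Cox8b, Cox7a1, Ebf3 and Tbx15, of which Cox7a1 and Tbx15 passed the filter through their puberty means alone. The median log2 change was -0.54, beside 0.09 over all tested probe sets. Without Ucp1, Cox8b and Cox7a1, the summed signal of the remaining 11 genes was 759 to 1898 at puberty and 779 to 908 in pregnancy. It was 22512 to 29876 in lactation and 709 to 953 in involution. The lactation sum was carried by 2 genes. Cidea had 14892 and 10789 in lactation, against 550, 180 and 225 at puberty (log2 change 5.49, SE 0.43, adjusted p = 2.82e-05). Fabp3, a fatty acid binding protein of heart, muscle and brown fat, had 14683 and 11282 in lactation, against 70.5, 40.3 and 79.5 at puberty (log2 change 7.72, SE 0.27, adjusted p = 8.51e-07). The authors gave Fabp3 as a representative gene of a cluster raised at pregnancy and lactation. The part of epithelial cells in the Cidea and Fabp3 values was not tested. Ebf3, a transcription factor gene of the adipocyte lineage, fell in lactation with a log2 change of -2.16 (adjusted p = 0.00035).

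Ucp3 moved most in lactation. Its signal was 104, 80.8 and 146 on the puberty arrays, 61.7 and 29.9 in pregnancy, 620 and 321 in lactation and 101 and 96.9 in involution. Both lactation arrays were above all others, and both pregnancy arrays were below all others. In order of the means, lactation (470 ± 211, SD, n = 2) was followed by puberty (110.1 ± 32.9, SD, n = 3), involution (99.1 ± 3.10, SD, n = 2) and pregnancy (45.8 ± 22.4, SD, n = 2). Puberty and involution, neighbours in this order, overlapped.

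Ucp3 passed the stage test (adjusted p = 0.0015). It rose 10.4-fold in lactation over pregnancy (log2 change 3.38, SE 0.43, adjusted p = 0.000509) and 4.17-fold over puberty (log2 change 2.06, SE 0.39, adjusted p = 0.00263). In involution it fell 4.5-fold against lactation (log2 change -2.17, SE 0.43, adjusted p = 0.00374), to a level that differed from puberty by -0.11 (SE 0.39, adjusted p = 0.949). Pregnancy against puberty had a log2 change of -1.31 (SE 0.39), which was not called (adjusted p = 0.0668). Lactation replicate 1 was 1.93-fold above replicate 2, and without it the change against puberty was 1.59 (adjusted p = 0.0586) and the involution change was -1.70 (adjusted p = 0.0592), neither of which passed.

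Cell type markers are given beside Ucp3 for lactation against pregnancy. Of all tested probe sets 21.6% were called higher and 19.7% lower in this contrast. Of 27 muscle genes, the markers of a tissue that expresses Ucp3, 1 was called higher and 1 lower. Their median log2 change was -0.07. Several of them, among them Tnni2, Tnnc1 and Tnnt1, were at the floor in both stages, where a change cannot be seen. The macrophage list had 0 called higher and 10 lower of 15 in that contrast, and the luminal epithelium list had 6 higher and 5 lower of 15, with a median of 0.38. The part of muscle or luminal epithelial cells in the Ucp3 values was not tested. Since Ucp2 was named on no probe set, whether the Ucp3 probe set also reads the Ucp2 transcript was not tested.

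**Figure D4:**
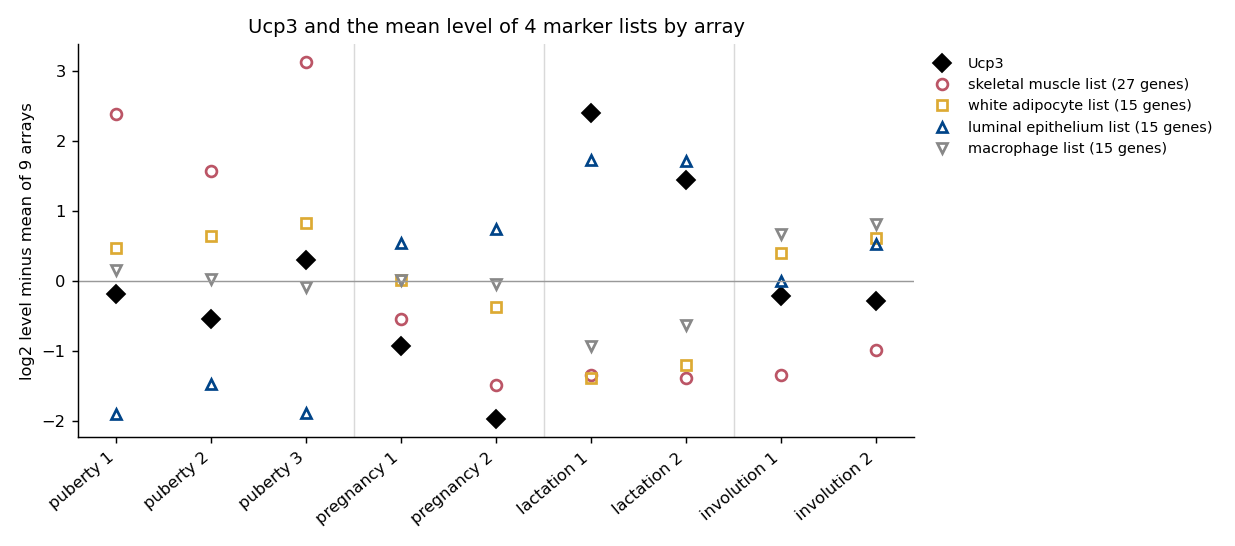
Log2 level minus its mean over the 9 arrays for Ucp3 (filled) and for the mean of the genes of 4 marker lists (open), by array. Ucp3 is highest on the lactation arrays, where the luminal epithelium list is also high and the muscle, white adipocyte and macrophage lists are low.

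Other genes of the mitochondrial carrier family changed in both directions. Of 22 listed carrier genes 13 had a probe set and 12 were tested, Ucp1 and Ucp3 included. In lactation 5 were called higher (26.1% of all tested) and 4 lower (21.8%) than at puberty. The median log2 change was -0.12, which was 0.42 with all probe sets of a gene. Slc25a1, the citrate carrier that supplies fatty acid synthesis, rose by 1.30 on the log2 scale (adjusted p = 0.00295), and Slc25a17, a carrier of peroxisomes, rose by 1.35 (adjusted p = 0.000267). Slc25a4, the adenine nucleotide carrier of muscle and heart, fell by 2.34 (adjusted p = 0.00013), with 207 and 357 in lactation, against 1344, 1121 and 1730 at puberty. Slc25a20, the carnitine and acylcarnitine carrier of fatty acid oxidation, fell by 1.51 (adjusted p = 0.00259).

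Cox8b was read by 2 probe sets that both fell after puberty. With the probe set of suffix _r_at, a class picked by relaxed rules, its signal was 1014, 837 and 1072 at puberty, 336 and 271 in pregnancy, 316 and 307 in lactation and 473 and 283 in involution. With the probe set of suffix _at it was 120, 124 and 149 at puberty, 59.1 and 48.2 in pregnancy, 55.4 and 42.4 in lactation and 89.4 and 75.6 in involution. With either probe set the puberty arrays lay above all other arrays. With the _r_at probe set the 3 later stages overlapped, and with the _at probe set both involution arrays were above the pregnancy and lactation arrays. The authors had listed Cox8b among the representative genes of a cluster raised at puberty and lowered at lactation.

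Both Cox8b probe sets passed the stage test (adjusted p = 0.000695 for _r_at and 0.00252 for _at). Pregnancy was lower than puberty by log2 changes of -1.68 (SE 0.22, adjusted p = 0.00269) and -1.29 (SE 0.22, adjusted p = 0.00835) with these probe sets, in that order. Neither pregnancy call was kept without pregnancy replicate 2 (adjusted p = 0.0528 and 0.0869). Lactation was 3.11-fold and 2.69-fold lower than puberty (log2 changes -1.64 and -1.43, SE 0.22 each, adjusted p = 0.00042 and 0.000983), and the calls were kept with each array left out in turn. Lactation against pregnancy showed log2 changes of 0.05 and -0.14, with SE of 0.24 and 0.25, and was not called.

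In involution the Cox8b probe sets parted. With the _r_at probe set involution was lower than puberty by a log2 change of -1.41 (SE 0.22, adjusted p = 0.00706), a call lost without lactation replicate 2 (adjusted p = 0.0522), and it differed from lactation by 0.23 (adjusted p = 0.46). With the _at probe set involution was higher than lactation by 0.76 (SE 0.25, adjusted p = 0.0332) and stood at -0.66 from puberty (SE 0.22, adjusted p = 0.122). That rise was not called without puberty replicate 2 (adjusted p = 0.0549), lactation replicate 2 (0.107) or involution replicate 1 (0.122).

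Cox7a1 was the other muscle and brown fat subunit. Its signal was 152, 47.4 and 102 at puberty, 15.0 and 14.3 in pregnancy, 16.8 and 14.5 in lactation and 20.3 and 19.6 in involution. All puberty arrays were above all later arrays, of which 5 of 6 were at the floor. Its mean exceeded 20 at puberty alone (100.5), so it passed the filter through the stage where it was high. The tests against puberty are therefore not independent of that filter, and the floor took away most of the spread of the later arrays. The stage test passed (adjusted p = 0.0033), a call lost with a floor of 50 (adjusted p = 0.315). Against puberty, Cox7a1 was at least 4.51-fold lower in pregnancy (log2 change -2.17, SE 0.41, adjusted p = 0.0107) and at least 4.51-fold lower in lactation (adjusted p = 0.00243). In involution, with 1 array at the floor and the other just above it, the log2 change was -2.16 (adjusted p = 0.0159). The lactation call was kept with each array left out in turn. The pregnancy call was lost without pregnancy replicate 1 or 2 (adjusted p = 0.0926 and 0.115) and without lactation replicate 1 or 2 (0.0604 and 0.064). The involution call was lost without puberty replicate 3 (0.0507), pregnancy replicate 1 or 2 (0.0517 and 0.0531), lactation replicate 1 or 2 (0.0764 and 0.0805) or involution replicate 1 or 2 (0.0862 and 0.126).

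Muscle markers were lower after puberty, as Cox8b and Cox7a1 were. Of the 27 tested muscle genes 24 were called lower in pregnancy than at puberty, 24 in lactation and 21 in involution. Over all tested probe sets 5.22%, 21.8% and 3.10% were called lower in these contrasts. Of the muscle genes 0 were called higher in any of these, and their median log2 changes were -3.52, -3.44 and -3.22. Several of them, among them Tnni2, Tnnc1 and Tnnt1, passed the filter through their puberty mean alone. Their tests against puberty are not independent of that filter, and their changes against the floor are lower bounds in size. Tnni2, fast skeletal troponin I, had 102, 99.2 and 161 at puberty and stood at or under 18.3 on every later array. Actn2 and Myh2 were at the floor on all 9 arrays. Lymphocyte markers were lower too, with 12 of 16 called in pregnancy and 16 in lactation against puberty. Their median log2 changes were -1.32 and -2.50, and in involution against puberty 0 were called higher and 0 lower. The part of muscle or lymphocyte RNA in the Cox8b and Cox7a1 values was not tested.

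White adipocyte markers were also lower in pregnancy and lactation. Of the 15 tested, 0 were called higher (6.20% of all tested) and 7 lower (5.22%) in pregnancy than at puberty. In lactation 0 were called higher (26.1%) and 11 lower (21.8%) than at puberty. In involution 12 were called higher (22.1%) and 0 lower (23.0%) than in lactation. Their summed signal was 28551 to 35294 at puberty, 16767 to 22684 in pregnancy, 12353 to 12830 in lactation and 27891 to 31702 in involution. The involution sums were near those of puberty. In involution Cox7a1 was at or near the floor, and Cox8b (_r_at) was below puberty. The _at probe set of Cox8b was called higher in involution than in lactation (0.76, adjusted p = 0.0332) and was not called below puberty (-0.66, adjusted p = 0.122). The part of white adipocytes in these values was not tested.

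Where both forms were tested, cytochrome c oxidase subunits split by isoform. Of 15 listed subunit genes 13 had a probe set and 12 were tested. In lactation 5 were called higher (26.1% of all tested) and 3 lower (21.8%) than at puberty, with a median log2 change of 0.24. The 3 that fell were Cox8b, Cox7a1 and Cox6a2, the muscle and heart form of subunit 6a. Cox6a2 had 10.4 and 5.30 in lactation, against 575, 347 and 1018 at puberty (log2 change -4.88, adjusted p = 6.76e-05). Of the partner isoforms of liver and most other tissues, those tested, Cox7a2 and Cox6a1, went the other way. Cox7a2, the partner of Cox7a1, rose to 2937 and 2885 in lactation, against 1235, 1528 and 1690 at puberty (log2 change 0.98, adjusted p = 0.00189). Cox6a1, the partner of Cox6a2, rose by 0.78 (adjusted p = 0.00794), read by a probe set that shares probes with similar sequences. Cox8a, the partner of Cox8b, was at the floor on all 9 arrays and was not tested.

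Among subunits with no tissue isoform on the list, Cox7b rose by 1.10 on the log2 scale in lactation (adjusted p = 0.000834). Cox4i1, the common form of subunit 4, was not called over the stages by either of its probe sets (adjusted p = 0.626 and 0.468). In pregnancy against puberty, 0 subunits were called higher (6.20% of all tested) and 3 lower (5.22%), again Cox8b, Cox7a1 and Cox6a2.

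**Figure D5:**
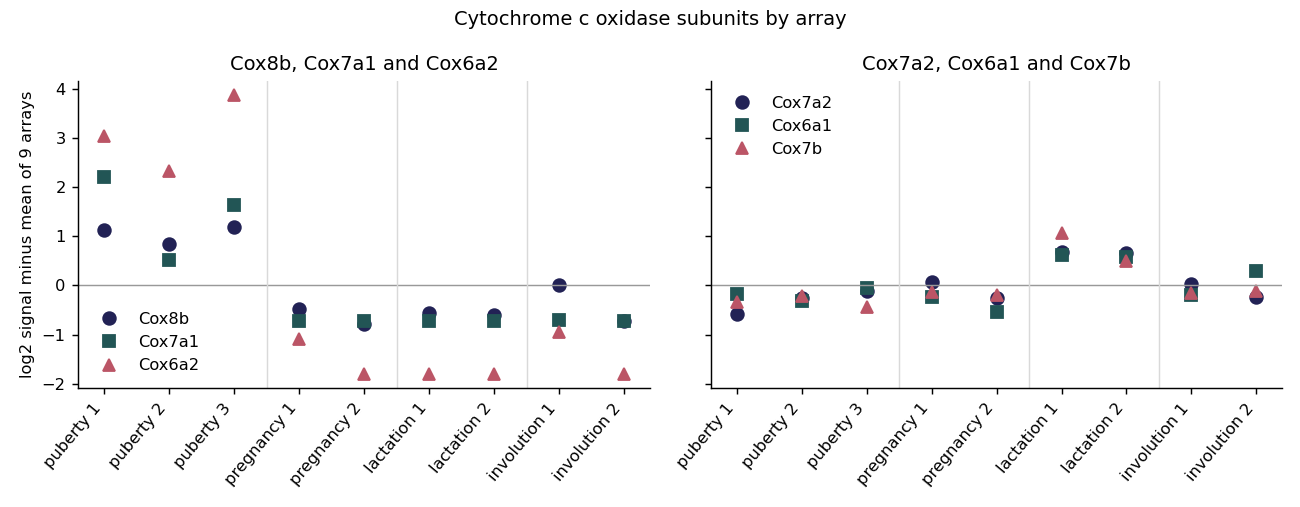
Log2 signal (floor of 20) minus its mean over the 9 arrays for 3 subunit isoforms of muscle and brown fat (Cox8b by its _r_at probe set, Cox7a1, Cox6a2; left) and 3 other subunits (Cox7a2, Cox6a1, Cox7b; right). The left panel is high on the puberty arrays alone, and the right panel is highest on the lactation arrays.

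Elovl3 and Ppargc1a were near background. Elovl3 had 7.71, 3.02 and 13.2 at puberty, 1.5 and 12.2 in pregnancy, 20.5 and 14.0 in lactation and 8.39 and 12.8 in involution. Both lactation arrays were above all other arrays, and 1 of them exceeded the floor. Ppargc1a ranged from 0.80 to 11.8 and was at the floor on all 9 arrays. No fold is given for either gene, and a signal under the floor does not show that the transcript was absent.

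Of the other elongases, Elovl5 and Elovl1 rose in lactation. Elovl5, which elongates polyunsaturated fatty acids, had 7003 and 5447 in lactation, against 789, 687 and 702 at puberty (log2 change 3.09, adjusted p = 3.26e-06). Elovl1, an elongase of saturated very long chains, rose by 2.69 (adjusted p = 1.95e-05). Elovl6, which extends palmitate, was called over the stages by 1 of its 2 probe sets (adjusted p = 0.0448 and 0.106) and was higher in involution than in lactation by 1.80 with the first (adjusted p = 0.0187), where 1 involution array stood at 1609 and the other at 480. Elovl2 was at the floor on all arrays.

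Regulators of the thermogenic program are listed apart, since Ppargc1a itself could not be read. Of 35 genes 27 had a probe set and 24 were tested, and 12 were called over the stages (50%, against 51.6% of all tested). In lactation 1 was called higher (26.1% of all tested) and 8 lower (21.8%) than at puberty, with a median log2 change of -0.04. In involution 9 were called higher (22.1%) and 5 lower (23.0%) than in lactation, with a median of 0.37. Pparg, the master regulator of adipocytes, was at the floor in lactation with 5.09 and 4.13, against 155, 200 and 186 at puberty. Irf4, a partner of PGC-1alpha in brown fat that is also a lymphocyte gene, had 29.0 and 23.7 in lactation, against 276, 201 and 290 at puberty (log2 change -3.27, adjusted p = 1.55e-05). Prkar1a, a regulatory subunit of the cyclic AMP dependent kinase, fell by 1.16 in lactation (adjusted p = 0.000198), and Twist1, a repressor of PGC-1alpha targets, fell by 2.43 (adjusted p = 0.000404). Pparg also fell in pregnancy (log2 change -0.76, adjusted p = 0.0286). Lymphocyte markers moved with Irf4, with 16 of 16 tested called lower in lactation than at puberty, and their part in its values was not tested. White adipocyte (11 of 15), macrophage (10 of 15) and endothelium (6 of 9) markers were called lower in the same contrast, and their part in the Pparg, Prkar1a and Twist1 values was not tested.

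The probe sets whose pattern over the 9 arrays was most like that of each member were found by the root mean square (RMS) difference of log2 signals centred on their mean, a description of likeness. Nearest to Ucp3 was Lpin1, a phosphatidate phosphatase of triglyceride synthesis, with an RMS difference of 0.35 and with 1606 and 955 in lactation. It was followed by Prkar1b (0.41), Slc5a6 (0.50), Rps28 (0.54) and a probe set of Slc25a1 (0.54). Nearest to Cox7a1 was Mef2c (0.15), a muscle transcription factor gene, then Pkia (0.30), Tnnc1 (0.30), Myom1 (0.33) and Nrap (0.34). Of these Tnnc1, Myom1 and Nrap encode proteins of the muscle sarcomere. Cox7a1 was at the floor on 5 of 9 arrays, and Mef2c, Tnnc1 and Myom1 were under it on all arrays after puberty. This likeness is thus set mostly by the puberty arrays. Nearest to Cox8b were Abcc9 (0.19), Slc25a53 (0.21), St3gal6 (0.21), Grb10 (0.22) and Mylpf (0.25) with the _r_at probe set, and Dgka (0.14), Cpt2 (0.15), Il16 (0.16), Gys1 (0.18) and Glul (0.19) with the _at probe set. Grb10 and Mylpf were also under the floor on all arrays after puberty. The 2 Cox8b probe sets differed from each other by 0.32.

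The Ucp1 _at probe set had no close neighbour. The nearest was Anp32a, at an RMS difference of 0.67, followed by Cotl1 (0.81), Ido1 (0.88), Atp2a3 (0.91) and Meg3 (0.93), and the _f_at Ucp1 probe set stood at 1.13. Anp32a had 254, 90.8 and 30.8 on the puberty arrays, the same order as Ucp1. The _f_at probe set had Itgam (0.14), Rara (0.17), Zfp36l2 (0.18), Nr0b2 (0.20) and Elp5 (0.20) nearest, each at the floor on most arrays, where small differences are set by the floor.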

How the data were processed

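RNA of 9 whole inguinal glands was measured on 9 arrays. The values the authors deposited are linear intensities, 1 per probe set of each array. They were made with MAS5, as the submitters' processing notes state. Its version is not given in the sources used here. The filter and normalization in GeneSpring that the methods describe are not in these values. The methods and the labels differ on the amount of cRNA per array.

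Without the 66 control probe sets, each array was multiplied by a factor (0.948 to 1.06) that brought its median to the mean of all medians. Lower signals were raised to the floor of 20 before log2. A probe set was tested where the mean signal of any stage exceeded 20 (9783 of 12422). The number of arrays limits the precision. In the platform annotation 10833 probe sets had 1 gene symbol, 396 had several and 1193 had no entry. Entrez IDs gave the current symbol of 10817, from RefSeq's table of GRCm38.p6. Genes on probe sets with several symbols are not named.

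limma 3.58.1 in R 4.3.3 (lmFit, eBayes with a trend) gave a moderated F test over the 4 stages and 5 contrasts, with Benjamini-Hochberg adjustment and a threshold of 0.05. All 9 arrays shared 1 estimate of the spread. The steps were tested on simulated data. Lists used 1 probe set per gene, the brightest. Figures were drawn with matplotlib 3.10.9. The members and lists were chosen with earlier results of these data known, and no list was tested.

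Named genes are all members, up to 4 genes per list with the smallest adjusted stage p, isoform partners and the 5 nearest patterns. Genes outside this rule were added from the lists and from the puberty arrays after their values were seen. The alternatives changed the scale (as deposited, quantile), the floor (none, 50, or 16 added to each signal), the filter (none, 100), the spread (no trend, robust, unmoderated), the blocking (replicate number), the probe sets per gene (all) and the arrays (each left out in turn).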

Additional observations from a re-analysis of the deposited data

How the results depend on the processing

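The count of members called by the stage test, 4, was 3 with a floor of 50, 5 with no floor and 4 to 5 with an array left out, and that of lactation against puberty, also 4, ranged from 3 to 6 over the alternatives. Without lactation replicate 2, 7 probe sets of the members passed the filter. In involution against puberty the 2 members called became 1 with a floor of 50, 1 without the filter and 0 by a plain analysis of variance. All probe sets called in that contrast, 732, became 480 with a floor of 50, 454 without the filter and 317 by a plain analysis of variance. For pregnancy against puberty, 1118 probe sets became 617 by a plain analysis of variance. Leaving out each array in turn gave 0 to 3 members and 286 to 1105 probe sets for pregnancy against puberty, 1 to 2 members and 2573 to 4088 probe sets for lactation against pregnancy, 1 to 2 members for involution against lactation, and 0 to 2 members and 244 to 801 probe sets for involution against puberty. With 1 array fewer, a stage of 2 holds a lone array, which is taken to vary like the other stages.

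Ucp1 (_at) in lactation against puberty passed with no floor (adjusted p = 0.0155), an added constant of 16 (0.0247), a filter of 100 (0.033) and robust fitting (0.0455), and missed with the other settings of scale, floor, filter and spread. Cox7a1 lost its stage call with a floor of 50 (adjusted p = 0.315), which lies above 1 of its 3 puberty signals. Ucp3 in pregnancy against puberty was called with a filter of 100 (adjusted p = 0.035).

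Replicate numbers do not pair the samples: the log2 differences between replicates 1 and 2 of a stage correlated by -0.102 to 0.049 between stages. With the replicate number as a block, 543 probe sets were called for pregnancy against puberty and 354 for involution against puberty. Only puberty had a replicate 3, so the block fitted that array exactly and took it out of the puberty estimate. The block fit thus overlaps with the fit without puberty replicate 3 and is no separate support. Under the block, Ucp1 (_at) passed the stage test (adjusted p = 0.0115), lactation against puberty (0.00536) and involution against puberty (0.0335), Ucp1 (_f_at) passed lactation against puberty (0.045), and Cox7a1 missed in pregnancy (0.05004) and involution (0.065) against puberty.

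Signs turned for changes near 0 that were never called. Cox8b (_r_at) in lactation against pregnancy was -0.061 on the deposited scale, -0.0048 after quantile normalization and -0.11 to 0.20 with an array left out. Cox8b (_at) in that contrast was -0.33 to 0.055 with an array left out, and Cox8b (_r_at) in involution against lactation was -0.14 to 0.60. Ucp3 in involution against puberty was 0.11 under the block and -0.31 to 0.11 with an array left out. With all probe sets of a gene, the lactation against puberty medians became 0.42 for the mitochondrial carriers (sign turned), 1.06 for the elongases, -1.45 for white adipocytes, 2.11 for luminal epithelium and -0.67 for macrophages. The causes were not tested. Signals near the floor of 20 limit Ucp1, Cox7a1, Elovl3 and Ppargc1a.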
